A study of Mus musculus with 20 samples.

Results

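The data described here are the RNA profiles of granulocytic myeloid-derived suppressor cells (gMDSC) sorted from mouse tumours after treatment with a CBP/EP300 bromodomain inhibitor (CBPi) or vehicle. The members are the libraries whose cell-type label reads gMDSC, 5 labelled CBPi-781 and 5 labelled Vehicle, which makes 10 of the 20 libraries of the series. The other 10 are monocytic MDSC (mMDSC) under the same treatments. They serve here to test where the gMDSC response differs, to check the labels and, in 1 alternative fit, to estimate the spread. All mice were female SCID.beige animals of 6 to 8 weeks, a strain without mature T and B cells and with impaired NK function. They carried a subcutaneous tumour grown from 5 M cells of MDA.MB.231-X1.1, a human breast cancer line, or of CT26, a mouse colon carcinoma line. The labels do not tie a library to either line, and they do not say whether a library is 1 mouse or a pool, so the p-values measure the spread between these libraries, which may be technical. Once tumours reached 150 to 200 mm3, the inhibitor GNE-781 was given by mouth at 25 mg/kg, 2 times a day for 7 days, and controls received its carrier, MCT. The gMDSC gate was CD45+CD11b+Ly6C+Ly6G+F4/80-, and polyadenylated RNA was sequenced.

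CBP (gene Crebbp) and EP300 are related acetyltransferases that modify histones at enhancers and serve as coactivators for many transcription factors, among them CREB, NF-kB, STAT proteins and hypoxia-inducible factor. Their bromodomain binds acetylated lysine, and an inhibitor of it displaces that reader function without blocking the catalytic site directly. Granulocytic MDSC are neutrophil-like cells that accumulate in tumours and are known for restraining T cells through nitric oxide, prostaglandins, reactive oxygen and arginine depletion.

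Each gMDSC library held between 12.37 and 23.27 M gene counts (M, mega). Depth moved with treatment: 4 of the 5 vehicle libraries held 12.37 to 14.1 M, and the 5 CBPi libraries 19.74 to 22.43 M. Counts thinned to a common total of 12.37 M gave 480 higher and 630 lower genes, close to the full data below. The neutrophil receptor gene Cxcr2 separated the labels completely, at 638.7 CPM (counts scaled to a library of 1 M) of the deposited total or more in every gMDSC library and at most 4.002 in every mMDSC library. Macrophage transcripts were abundant despite the F4/80- gate: Adgre1, which encodes F4/80, read 467.3 to 1491 CPM with vehicle and 430.2 to 930.5 with CBPi. Ly6g, the gene of the gate's defining antigen, was scarce at 0.4297 to 7.385 CPM with vehicle and 0.5057 to 1.578 with CBPi. Vehicle library 3 stood apart: its Pearson correlation of log2 CPM with the other vehicle libraries was 0.831 to 0.865 against 0.911 to 0.956 among those 4, and it lay alone on the first principal component. Vehicle library 5 had the lowest Ly6g of its group. Genes with near-identical copies (Hspa1a and Hspa1b, Ly6c1 and Ly6c2, the Bcl2a1 and Stfa families, and genes with many pseudogenes such as Gapdh) are uncertain, since the counting could split their reads.

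**Figure D1:**
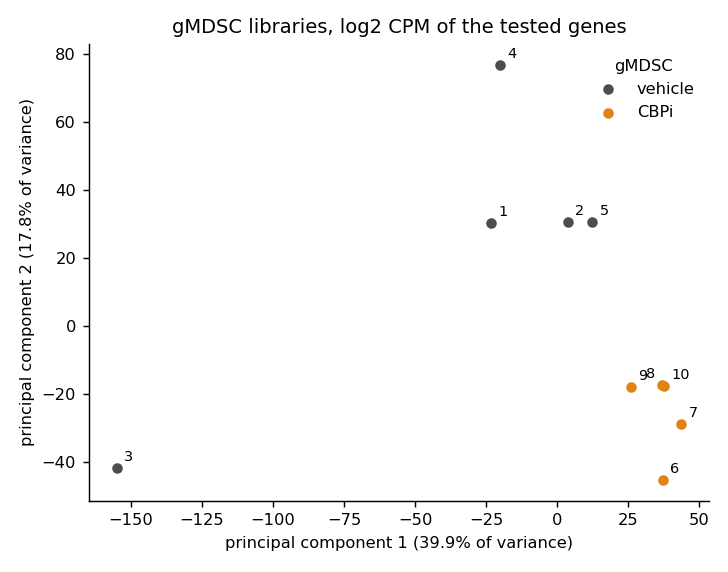
Principal components 1 and 2 of log2 CPM over the tested genes, 1 point per gMDSC library, numbered by replicate. Vehicle library 3 lies at -154.92 on component 1, which held 39.9% of the variance, and component 2 places the other 4 vehicle libraries above all 5 CBPi libraries.

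CBPi changed the level of about 1 in 10 tested genes in gMDSC, in both directions. Of 11694 genes tested, 489 were higher with CBPi (4.18% of those tested) and 646 were lower (5.52%) at an adjusted p under 0.05 in edgeR's quasi-likelihood test. These shares are the background for the counts of list members below. The median log2 fold change of all tested genes was 0.003. Among the called genes, 316 rose and 371 fell by 2-fold or more, and 32 rose and 24 fell by 8-fold or more. In 1416 genes (12.1%) the 5 CBPi values and the 5 vehicle values did not overlap. The counts of called genes were lowest without CBPi library 7, at 229 higher and 358 lower, and highest without vehicle library 3, at 658 and 736. They were 282 and 426 without CBPi library 6, and 410 genes fell without CBPi library 8 or 10. No gene called both here and under another setting changed sign, which the fits could hardly show because they share most or all of their libraries.

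**Figure D2:**
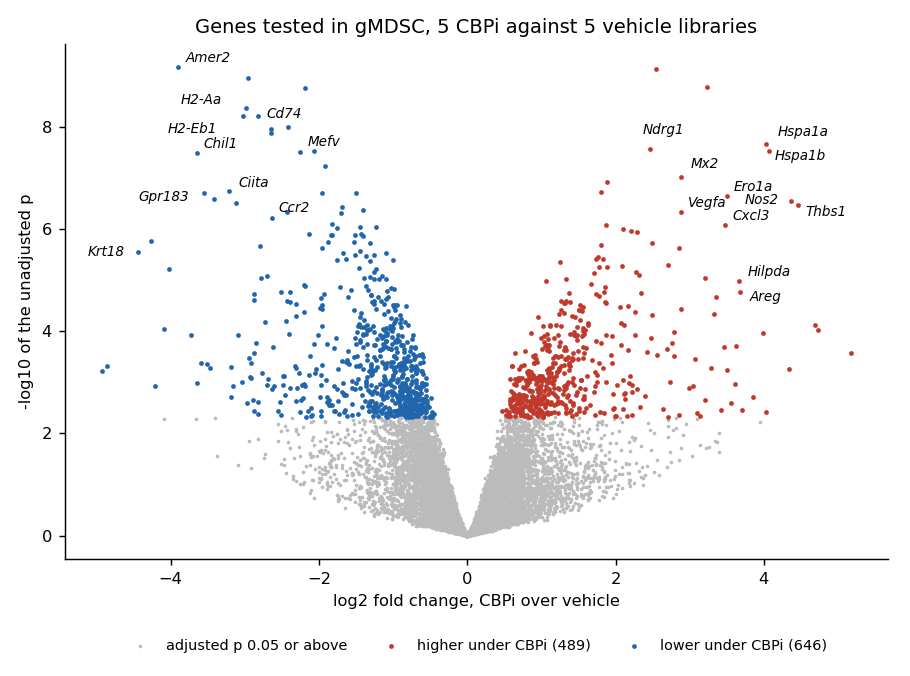
Each point is 1 of the 11694 genes tested in gMDSC, with the log2 fold change of CBPi over vehicle on the x axis and -log10 of the unadjusted p on the y axis. The 489 red and 646 blue genes passed the adjusted threshold, with hypoxia, heat-shock and effector genes on the right and antigen presentation genes on the left.

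The genes with the largest rise among those at 10 CPM or more include genes of secreted, stress and effector proteins. Thbs1, the matrix glycoprotein thrombospondin 1, read 25.8, 44.8, 19.5, 30.7 and 49.2 CPM in vehicle libraries 1 to 5 and 1398, 1209, 423, 315 and 426 in CBPi libraries 6 to 10. It was 22.1-fold higher (log2 4.47, SE 0.47, adjusted p = 1.34e-04), and CBPi 6 and 7 stood above the other 3 treated libraries. After Nos2, Hspa1a, Hspa1b, Areg, Hilpda, Vcan, Ero1a, Cxcl3 and F13a1, which are described with their groups below, the 12 ended with Stfa2 and Fry. Stfa2, a cytosolic cysteine protease inhibitor of neutrophils, was 10.02-fold higher (log2 3.33, adjusted p = 0.00322). Fry, a large microtubule-associated scaffold, was 9.76-fold higher (log2 3.29, adjusted p = 0.0137), but its groups overlapped because CBPi library 10 read 1.28 CPM. Under limma-voom with quality weights Fry did not pass (log2 2.29, adjusted p = 0.241). Without vehicle 3 the log2 value of Stfa2 was 4.17.

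The largest falls included a keratin, a sialic acid enzyme and several membrane proteins. Krt18, an intermediate filament gene, read 24.1, 33.6, 41.5, 31.5 and 15.5 CPM with vehicle and 1.53, 0.573, 0.401, 3.54 and 0.685 with CBPi, 21.7-fold lower (log2 -4.44, SE 0.57, adjusted p = 5.42e-04). Cmah, which hydroxylates sialic acid, was 19.3-fold lower (log2 -4.27, adjusted p = 3.86e-04), and Capn3, a calcium-dependent protease, 16.3-fold lower (log2 -4.02, adjusted p = 8.81e-04). Amer2, a regulator of WNT signalling, had the smallest adjusted p of these, with 47.6 to 86.5 CPM in vehicle and 2.8 to 5.2 in CBPi libraries (log2 -3.90, SE 0.25, adjusted p = 4.10e-06). Gpr183, the oxysterol receptor that guides leukocyte positioning, fell from 40.9 ± 7.42 to 3.48 ± 1.78 CPM (mean ± SD, n = 5; log2 -3.55, adjusted p = 9.37e-05). The list holds a pair of potassium channel genes: Kcnn4, a calcium-activated channel, was 10.7-fold lower (log2 -3.42, adjusted p = 1.12e-04) and Kcnj8, an inward rectifier subunit, 17.1-fold lower (log2 -4.09, adjusted p = 0.00494). Without CBPi 9 the log2 value of Krt18 was -5.20, and without CBPi 6 that of Kcnj8 was -4.74. The list was completed by Chil1, Ciita and H2-Eb1, described below, Serpine2, a protease inhibitor (log2 -3.12, adjusted p = 1.24e-04), and Slco2b1, an organic anion transporter (log2 -3.10, adjusted p = 0.00562).

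RNA of MHC class II presentation genes fell broadly. Of 15 tested members of the class II list, 10 fell and none rose, with a median log2 fold change of -1.16 beside 0.003 for all tested genes. In each of the 10 fits that left out 1 library, 10 members again fell. Class II molecules are αβ heterodimers that show peptides to CD4+ T cells, and their genes share a promoter module whose S, X and Y boxes recruit the transactivator CIITA, which in turn binds CBP. The promoter windows of the α chain gene H2-Aa and the β chain gene H2-Eb1 are printed because both hold the Y box letters CTGATTGG, in capitals. Both run 5′ to 3′ on the gene's strand, from 250 bases before to 50 after the RefSeq start, build GRCm38.p6: H2-Aa at chr17:34287774-34288073, minus strand, and H2-Eb1 at chr17:34305617-34305916, plus strand.
H2-Aa: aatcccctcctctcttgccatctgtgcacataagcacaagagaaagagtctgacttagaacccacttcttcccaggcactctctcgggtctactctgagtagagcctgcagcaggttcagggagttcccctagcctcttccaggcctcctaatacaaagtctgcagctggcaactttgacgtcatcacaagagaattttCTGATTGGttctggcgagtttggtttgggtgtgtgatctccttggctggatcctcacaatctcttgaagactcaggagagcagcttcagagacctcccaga
H2-Eb1: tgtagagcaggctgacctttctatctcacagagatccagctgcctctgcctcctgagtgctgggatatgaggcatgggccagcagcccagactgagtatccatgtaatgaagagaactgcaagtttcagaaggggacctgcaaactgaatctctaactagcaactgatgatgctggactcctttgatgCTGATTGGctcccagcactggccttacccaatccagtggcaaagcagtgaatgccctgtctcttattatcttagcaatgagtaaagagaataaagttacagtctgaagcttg
The H2-Aa window also holds tgacgtca, the letters of the cAMP response element, upstream of its Y box. Y box letters were found in 3 of the 11 windows of tested class II genes (27.3%), in 32.1% of those of tested heat-shock and unfolded protein response genes and in 5.47% of those of all tested genes. Of the 16 class II members, tested or not, 11 had a window and 4 a match. This motif too was added after the data were seen.

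H2-Aa read 1700.2, 1434, 2232, 1595 and 1701 CPM in vehicle libraries and 154, 160.4, 290.0, 264 and 221 in CBPi libraries. The groups were far apart, 7.95-fold lower with CBPi (log2 -2.99, SE 0.22, adjusted p = 8.18e-06). H2-Eb1 read 2424, 2076, 3513, 2301 and 2449 CPM against 215, 250.5, 441, 352 and 311, 8.14-fold lower (log2 -3.02, SE 0.23, adjusted p = 9.18e-06), with vehicle 3 the highest of its group. H2-Ab1, the partner chain gene of H2-Aa, fell 6.28-fold, from 2946 ± 619 to 469 ± 117 CPM (log2 -2.65, adjusted p = 1.39e-05). Cd74 encodes the invariant chain, which blocks the peptide groove until the endosome, and was the sixth most abundant gene of vehicle gMDSC per length. It read 14285, 12637, 16411, 13486 and 14891 CPM with vehicle and 1366, 1549, 2762, 2374 and 2072 with CBPi, a 7.08-fold fall (log2 -2.82, SE 0.21, adjusted p = 9.18e-06). In RPKM, which also divides by gene length, the mean went from 9599 to 1433. Ciita itself was 9.27-fold lower, at 60.3, 59.7, 26.8, 42.5 and 83.3 CPM against 4.08, 4.87, 8.86, 6.48 and 5.09 (log2 -3.21, SE 0.32, adjusted p = 9.37e-05). The peptide exchange factor genes fell as well: H2-DMb1 was 6.25-fold, H2-DMb2 5.33-fold and H2-DMa 2.23-fold lower (adjusted p = 1.28e-05, 1.28e-05 and 0.00109). Ctss, the protease that trims the invariant chain, was 1.89-fold lower (log2 -0.92, adjusted p = 0.00666).

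Some markers of other antigen-presenting cells were lower with CBPi while most showed no call. Their part in the fall of class II genes was not tested. The summed level of 24 macrophage markers ran from 29530 to 60200 CPM with vehicle and from 13940 to 32730 with CBPi. CBPi 6 and 7 set the low end, at 13938 and 17440 CPM, while CBPi 8 to 10 read 28941 to 32729, near vehicle 1 at 29527. CBPi 6 and 7 are also the highest treated libraries for Ero1a, Vegfa, Pfkl, Hspa1a, Nos2 and Thbs1 below, and a link between these was not tested. Without Apoe, the lipid transport gene and its most abundant member, the ranges were 12970 to 19020 and 6958 to 14650. Of 21 macrophage markers tested, 4 fell and none rose, and 1 fell without CBPi library 7. C1qa, the complement subunit typical of tissue macrophages, read 2487, 2719, 4812, 2544 and 3011 CPM with vehicle and 1501, 1921, 2713, 2962 and 2492 with CBPi, with overlapping groups (log2 -0.43, adjusted p = 0.272). Apoe was 2.22-fold lower (log2 -1.15, adjusted p = 0.0242; 8 of 10 leave-one-out fits) and Ms4a7 2.17-fold lower (log2 -1.12, adjusted p = 0.0173; 9 of 10). The others were Vcam1, an adhesion molecule (log2 -1.30, adjusted p = 0.0166), and Trem2, a lipid-sensing receptor (log2 -1.09, adjusted p = 0.0204, 8 of 10 leave-one-out fits). The summed level of 18 dendritic cell markers was 695.6 to 932 CPM against 433.6 to 544.7, most of it from Bst2 and Itgax. Of 13 tested, 1 rose and 2 fell (Batf3 and Itgax, given below), with a median log2 fold change of 0.44. Without vehicle library 3 the median was 0.055, and 1 rose and 4 fell. The riser was the migration receptor gene Ccr7, 6.55-fold higher (log2 2.71, adjusted p = 0.0491, 3 of 10 leave-one-out fits, log2 3.38 without vehicle 4). In bulk libraries fewer cells of a type and less RNA per cell cannot be told apart. Of 22 tested class I genes 2 fell (9.09%, beside 5.52% of all tested genes) and none rose. They were the immunoproteasome gene Psmb8 and the proteasome activator gene Psme2 (log2 -1.11, adjusted p = 0.0135). The Psmb8 call (log2 -0.71, adjusted p = 0.0329) held in 3 of 10 leave-one-out fits, with an adjusted p up to 0.0825.

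Most genes of the hypoxia response rose. Of 22 tested members, 18 were higher with CBPi and none lower, with a median log2 fold change of 1.76, and 16 to 18 were higher when any 1 library was left out. Without vehicle library 3, 1 member was lower. Hypoxia-inducible factor binds the short element ACGTG near genes for oxygen sensing, angiogenesis and glycolysis, and CBP and EP300 are coactivators of its α subunit. The windows of Ero1a, an endoplasmic reticulum oxidase, Egln3, an oxygen-sensing hydroxylase, Bnip3, a mitophagy receptor, and P4ha1, a collagen prolyl hydroxylase, are shown because each holds that element. Capitals mark ACGTG or its reverse complement CACGT, and all 4 were chosen after their values were seen. Their places in GRCm38.p6 are chr14:45318523-45318822 (minus strand), chr12:54203825-54204124 (minus), chr7:138909457-138909756 (minus) and chr10:59323046-59323345 (plus).
Ero1a: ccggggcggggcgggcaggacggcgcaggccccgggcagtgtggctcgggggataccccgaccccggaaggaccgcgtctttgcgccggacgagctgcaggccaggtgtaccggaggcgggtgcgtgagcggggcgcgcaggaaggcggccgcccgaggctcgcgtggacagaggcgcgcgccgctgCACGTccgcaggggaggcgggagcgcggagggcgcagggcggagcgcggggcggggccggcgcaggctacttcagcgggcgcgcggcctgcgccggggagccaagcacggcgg
Egln3: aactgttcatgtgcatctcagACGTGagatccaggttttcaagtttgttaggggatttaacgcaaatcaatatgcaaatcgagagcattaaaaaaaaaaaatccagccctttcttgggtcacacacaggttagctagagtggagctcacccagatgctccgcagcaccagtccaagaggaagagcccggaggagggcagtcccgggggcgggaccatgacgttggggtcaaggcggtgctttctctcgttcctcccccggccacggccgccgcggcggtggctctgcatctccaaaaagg
Bnip3: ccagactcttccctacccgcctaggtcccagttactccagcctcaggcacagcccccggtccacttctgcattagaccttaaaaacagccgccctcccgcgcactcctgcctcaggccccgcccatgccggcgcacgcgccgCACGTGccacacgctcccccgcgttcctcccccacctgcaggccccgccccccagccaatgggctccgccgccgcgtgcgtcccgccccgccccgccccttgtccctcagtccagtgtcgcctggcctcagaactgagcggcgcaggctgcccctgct
P4ha1: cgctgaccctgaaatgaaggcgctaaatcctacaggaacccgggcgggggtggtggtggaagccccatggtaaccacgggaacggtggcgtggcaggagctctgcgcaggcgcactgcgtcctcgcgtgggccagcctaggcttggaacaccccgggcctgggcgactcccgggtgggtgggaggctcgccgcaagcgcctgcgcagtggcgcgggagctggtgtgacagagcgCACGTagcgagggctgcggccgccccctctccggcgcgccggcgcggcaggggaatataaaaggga
In Bnip3 the capitals join 2 overlapping matches, 1 on each strand. Over the tested genes of the hypoxia and glycolysis lists together, 32 of 56 windows held the element (57.1%), beside 25.8% of the windows of all tested genes and 39.3% of those of tested heat-shock and unfolded protein response genes. Counting untested members, 17 of the 21 hypoxia members and 13 of the 19 glycolysis members with a window had a match. The share was 32.9% among windows of genes that rose and 18.3% among those that fell. This motif was added after the data were seen, and a match is only a run of letters.

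Ero1a read 90.4, 57.3, 125, 64.8 and 63 CPM with vehicle and 1567, 1236, 577, 631 and 528 with CBPi, 11.3-fold higher (log2 3.50, SE 0.36, adjusted p = 1.04e-04). CBPi 6 and 7 were the highest of the treated group, and its lowest library still lay above every vehicle library. Hilpda, which inhibits lipolysis at lipid droplets, was 12.7-fold higher, at 43.3, 15.1, 92.8, 15 and 19.7 CPM against 742, 543, 314, 485 and 265 (log2 3.66, SE 0.53, adjusted p = 0.00126); without vehicle 3 its log2 value was 4.32. Vegfa, the endothelial growth factor, read 52, 50.7, 40.9, 54.4 and 32.2 CPM against 631, 395, 216, 243 and 217, a 7.39-fold rise (log2 2.89, SE 0.32, adjusted p = 1.62e-04). Ndrg1, a stress-responsive gene used as a hypoxia marker, varied little among vehicle libraries, 23.1 to 30.5 CPM, and read 104 to 201 with CBPi (log2 2.46, SE 0.21, adjusted p = 2.23e-05). The oxygen sensor gene Egln3 rose 5.01-fold (log2 2.32, adjusted p = 0.00108), as did Bnip3 (6.51-fold, log2 2.70, adjusted p = 7.83e-04) and P4ha1 (4.29-fold, log2 2.10, adjusted p = 2.76e-04). Hif1a, which encodes the α subunit, rose as well: it read 362, 338, 189, 384 and 330.1 CPM with vehicle and 1526, 1194, 606, 640.3 and 558 with CBPi (log2 1.498, SE 0.30, adjusted p = 0.00878). Bhlhe40, a repressor induced by hypoxia, was 2.51-fold higher (log2 1.33, adjusted p = 0.00847).

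Glycolysis genes rose with them. Of 20 tested, 13 were higher and none lower (median log2 1.26), and between 10 and 16 rose when 1 library was left out. Pfkl, a subunit of the committing enzyme phosphofructokinase, read 115, 132, 184, 128 and 121 CPM with vehicle and 962, 814, 509, 443 and 402 with CBPi (log2 2.20, SE 0.26, adjusted p = 2.92e-04). The platelet-type subunit gene Pfkp was 3.58-fold higher (log2 1.84, adjusted p = 0.0018). Pfkfb3, whose product makes the activator of that enzyme, rose 5.65-fold, from the range 133 to 208 to the range 593 to 1732 CPM (log2 2.50, adjusted p = 3.99e-04). Every CBPi library lay above every vehicle library for these 3 genes. Glucose entry genes rose too: the transporter Slc2a3 was 5.63-fold higher (log2 2.49, adjusted p = 0.00328) and Slc2a1 2.53-fold (log2 1.34, adjusted p = 0.0105). Hk2, the inducible hexokinase, rose 3.85-fold although its groups overlapped, at 9.48 to 23.9 CPM against 23 to 93.6 (log2 1.95, adjusted p = 0.0098). Further down the pathway, Tpi1, triose phosphate isomerase, was 3.34-fold higher (log2 1.74, adjusted p = 6.40e-04) and Ldha, lactate dehydrogenase A, 2.28-fold (log2 1.19, adjusted p = 0.00449). Aldoc, an aldolase isoform, was near 0 with vehicle, at 0.165, 1.13, 0.245, 0 and 0.0385 CPM, and read 6.12, 8.16, 7.48, 11.7 and 6.51 with CBPi (log2 4.68, SE 0.83, adjusted p = 0.00449); its fitted fold depends on the prior count, and without vehicle 2, the highest of its group, the log2 value was 6.21.

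**Figure D3:**
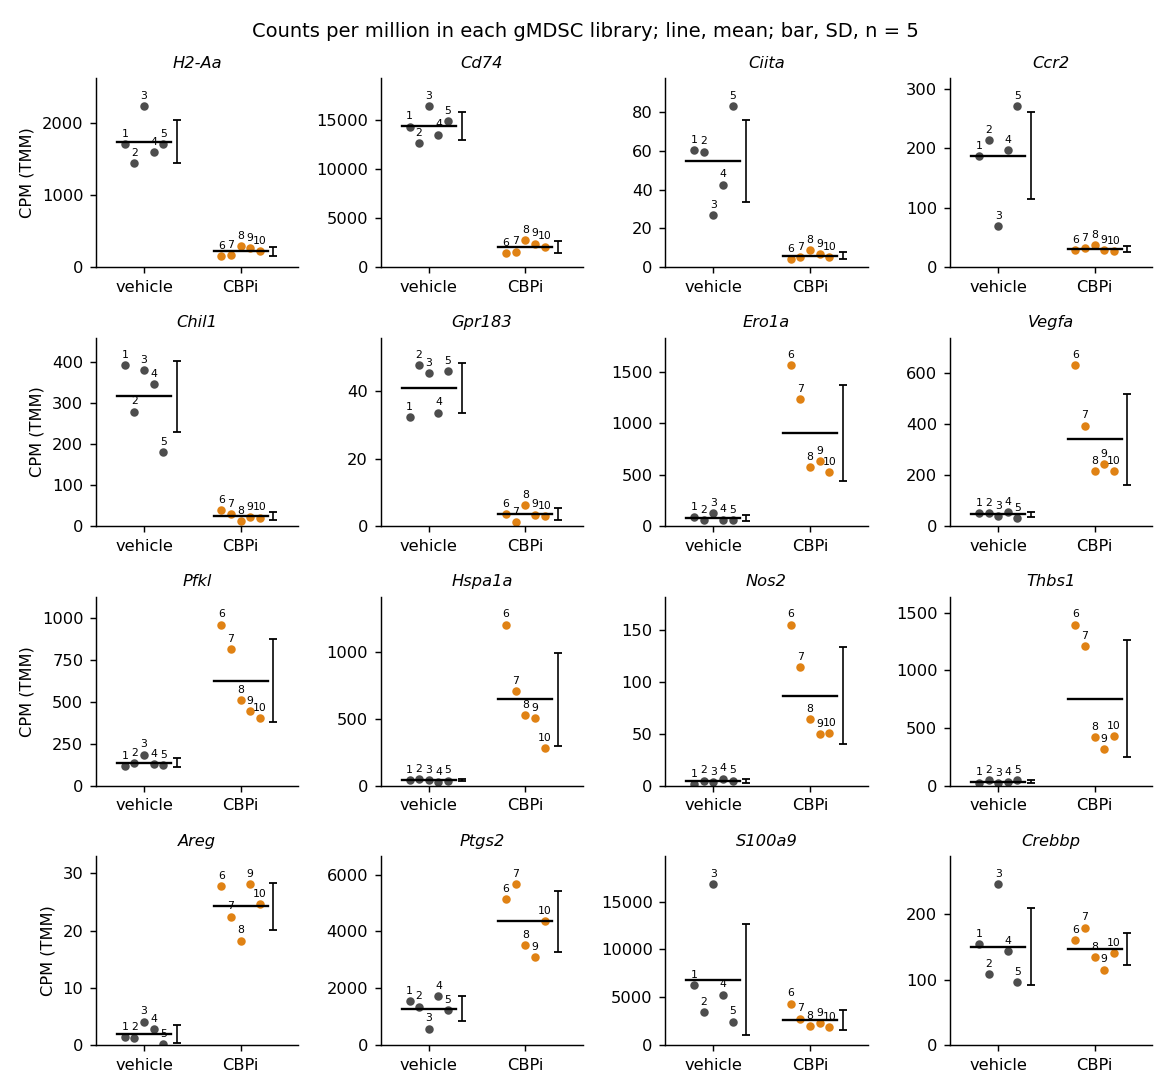
CPM (y axis, linear, from 0) of 16 genes in each gMDSC library, numbered by replicate, with the mean as a line and the SD as a bar (n = 5 per group). H2-Aa, Cd74, Ciita and Gpr183 are low in all 5 CBPi libraries, CBPi 6 and 7 are the 2 highest for Ero1a, Vegfa, Pfkl, Hspa1a, Nos2 and Thbs1, and vehicle 3 is the highest for S100a9 and Crebbp.

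Several chaperone genes rose, the inducible HSP70 genes most. Of 27 tested heat-shock and unfolded protein response genes, 9 were higher and 1 lower (median log2 0.35), and 8 or 9 rose without any 1 library. HSF1 drives the classical heat-shock genes from inverted GAA repeats, and the windows of the inducible HSP70 genes Hspa1a and Hspa1b are shown with that element, GAANNTTC, in capitals. They lie on chromosome 17 of GRCm38.p6 at chr17:34972107-34972406 and chr17:34959189-34959488, both on the minus strand.
Hspa1a: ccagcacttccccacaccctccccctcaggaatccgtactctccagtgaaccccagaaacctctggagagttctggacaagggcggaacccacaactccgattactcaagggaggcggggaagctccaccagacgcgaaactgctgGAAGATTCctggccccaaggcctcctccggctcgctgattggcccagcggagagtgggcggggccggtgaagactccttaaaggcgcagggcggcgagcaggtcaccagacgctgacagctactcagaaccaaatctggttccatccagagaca
Hspa1b: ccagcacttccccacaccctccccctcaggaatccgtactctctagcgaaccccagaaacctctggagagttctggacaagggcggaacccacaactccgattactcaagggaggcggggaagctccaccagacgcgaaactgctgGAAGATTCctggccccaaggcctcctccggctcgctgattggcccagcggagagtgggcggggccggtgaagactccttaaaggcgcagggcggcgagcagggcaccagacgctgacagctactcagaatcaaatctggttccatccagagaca
The 2 windows are the same at 296 of 300 positions. Both also hold the Y box letters ctgattgg. The GAA element was found in 32.1% of the windows of the list's tested genes and 5.86% of those of all tested genes, and was added after the data were seen.

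Hspa1a read 39.6, 47.5, 41.5, 26.7 and 36.9 CPM with vehicle and 1203, 704, 524, 506 and 282 with CBPi, 16.7-fold higher (log2 4.07, SE 0.35, adjusted p = 2.23e-05). Hspa1b followed it closely, at 35.3, 49.96, 44.7, 39.1 and 35.5 CPM against 1226, 739.9, 566, 519 and 287 (log2 4.03, SE 0.34, adjusted p = 2.13e-05). Even the lowest treated library, CBPi 10, was several times the highest vehicle library. Hspa8, the constitutive HSP70, rose from the range 12.7 to 16.8 to the range 45 to 67.4 CPM (log2 1.88, SE 0.18, adjusted p = 6.89e-05), and Hsp90aa1, the inducible HSP90, was 4.48-fold higher (log2 2.16, adjusted p = 0.00248). The co-chaperone genes Dnajb1 and Hsph1 were 2.72-fold and 2.76-fold higher (adjusted p = 0.00523 and 0.00564). Hmox1, the haem-degrading antioxidant enzyme, was 3.62-fold higher (log2 1.86, adjusted p = 0.00152), the only riser among 25 tested NADPH oxidase and antioxidant genes. In that list 5 fell, among them the oxidase subunits Ncf4 (log2 -0.83, adjusted p = 0.0112) and Rac2 (log2 -0.77, adjusted p = 0.00772); 2 fell without CBPi 6 or CBPi 7, 3 without vehicle 1 or CBPi 8, 9 or 10, and 9 without vehicle 5.

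Effector genes linked to suppression moved in both directions. Of 16 tested, 4 rose (Nos2, Ptgs2 and the hypoxia-related Vegfa and Hif1a) and 2 fell, with 1 falling without vehicle 1, vehicle 4 or CBPi 8, 9 or 10. Nos2, inducible nitric oxide synthase, read 1.24, 4.67, 3.43, 6.69 and 4.69 CPM with vehicle and 155, 114, 63.9, 49.4 and 50.2 with CBPi, 20.7-fold higher (log2 4.37, SE 0.46, adjusted p = 1.17e-04). All 5 treated libraries lay well above the highest vehicle library, CBPi 6 and 7 the most. Ptgs2, the cyclooxygenase that makes prostaglandin precursors, read 1531, 1351, 572, 1708 and 1216 CPM against 5131, 5679, 3529, 3109.6 and 4357 (log2 1.77, SE 0.27, adjusted p = 0.002). Arg1, arginase 1, was scarce in both groups, at 3.13, 0.527, 4.25, 1.65 and 0.885 against 3.12, 4.06, 1.51, 2.66 and 0.771 CPM (log2 0.22, adjusted p = 0.869). Cd274, which encodes the checkpoint ligand PD-L1, read 519, 234, 167, 259.5 and 187 against 428, 358, 265, 177 and 240.0 CPM (log2 0.10, adjusted p = 0.875). Neither passed the test, and both changed sign when single libraries were left out. Nt5e, the ectonucleotidase CD73, was 3.4-fold lower (log2 -1.77, adjusted p = 0.00604).

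Cytokines and chemokines showed a similar mixture. Areg, the EGF receptor ligand amphiregulin, read 1.32, 1.28, 4.09, 2.71 and 0.192 CPM with vehicle and 27.8, 22.4, 18.2, 28.2 and 24.6 with CBPi, 12.9-fold higher (log2 3.69, SE 0.56, adjusted p = 0.0018). Its window is shown because it holds the cAMP response element TGACGTCA, in capitals, at chr5:91139349-91139648 of GRCm38.p6, plus strand.
Areg: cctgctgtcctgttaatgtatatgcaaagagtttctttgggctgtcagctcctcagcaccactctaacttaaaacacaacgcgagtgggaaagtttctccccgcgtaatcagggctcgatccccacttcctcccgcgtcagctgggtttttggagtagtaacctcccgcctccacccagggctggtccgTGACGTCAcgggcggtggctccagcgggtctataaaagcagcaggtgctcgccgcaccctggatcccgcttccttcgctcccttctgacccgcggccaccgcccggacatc
That element was in 4.43% of windows of genes that rose, 2.57% of those that fell and 3.08% of those tested. Il6 rose from the range 0.846 to 6.62 to the range 7.46 to 18 CPM (log2 2.01, SE 0.49, adjusted p = 0.0212); its call held in 7 of 10 leave-one-out fits, with an adjusted p up to 0.0578. Il1b, the second most abundant gene of vehicle gMDSC per length, read 28286, 17531, 33286, 27395 and 13588 CPM with vehicle and 27105, 23877, 19063, 21677 and 22106 with CBPi (log2 -0.08, adjusted p = 0.874). Tnf read 637, 424, 448, 605 and 258 against 819, 755, 682, 611 and 616 CPM (log2 0.55, adjusted p = 0.133) and did not pass either. Among 25 tested cytokines 5 rose and 3 fell, the latter being Il1f9, an interleukin-36 family gene (log2 -1.43, adjusted p = 0.00466), Il16, a CD4 ligand (log2 -1.24, adjusted p = 2.63e-04), and Tnfsf13b, the B-cell factor BAFF (log2 -1.44, adjusted p = 2.62e-04). Only 3 rose without CBPi library 7.

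Of 18 tested chemokines, 4 rose and 5 fell. The CXCR2 ligand gene Cxcl3 read 76.6, 39.1, 103, 51.4 and 36.9 CPM with vehicle and 1310, 767, 363, 510.2 and 472 with CBPi (log2 3.48, SE 0.40, adjusted p = 2.55e-04). Cxcl1, another CXCR2 ligand, was 2.4-fold higher (log2 1.26, adjusted p = 0.00449). Ccl24, an eosinophil attractant, rose from the range 0.409 to 2.18 to the range 6.51 to 13.2 CPM (log2 2.88, adjusted p = 0.00277), and Ccl3, a macrophage inflammatory protein, 2.28-fold (log2 1.19, adjusted p = 0.0122). The fall of Cxcl9, an interferon-induced T-cell attractant, rested on overlapping groups (log2 -1.67, adjusted p = 0.0439) and held in 3 of 10 leave-one-out fits, with log2 -2.28 without CBPi 8. Without vehicle library 3, 7 chemokines rose and 3 fell. The number that fell was also 3 without vehicle 2 or CBPi 9, 2 without vehicle 1 or 4, and 1 without CBPi 6, 7 or 10.

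Of 17 tested chemoattractant receptors 10 fell (58.8%, beside 5.52% of all tested genes) and none rose (median log2 -0.68). The number that fell was 5 without CBPi 10 and 6 without vehicle 1, vehicle 4 or CBPi 7, 8 or 9. Ccr2, the receptor for monocyte chemoattractants, read 188, 214, 69.2, 197 and 272 CPM with vehicle and 28.2, 31.1, 37.3, 27.7 and 26.5 with CBPi, 6.23-fold lower (log2 -2.64, SE 0.29, adjusted p = 1.95e-04). Vehicle 3 was the lowest of its group and still above every treated library. Ltb4r1, the leukotriene B4 receptor of neutrophils, was 2.56-fold lower (log2 -1.36, adjusted p = 0.00449), and Fpr2, a formyl peptide receptor, 2.74-fold (log2 -1.45, adjusted p = 0.0131). Cxcr2 itself read 1539, 1042, 1257, 1432 and 839 CPM against 932, 825, 584, 611 and 647, with overlapping groups (log2 -0.76, SE 0.20, adjusted p = 0.0314); its call held in 4 of 10 leave-one-out fits, with an adjusted p up to 0.0788. Ccr3 fell from the range 5.56 to 13.6 to the range 0.668 to 2.24 CPM (log2 -2.40, adjusted p = 0.0056).

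Among lectin, Siglec, TREM and CD300 receptors 14 of 33 tested members were lower (42.4%, beside 5.52% of all tested genes) and none higher (median log2 -0.57), and 9 without CBPi library 7. Clec5a, an activating lectin that pairs with DAP12, read 435, 362, 319, 465.8 and 256 CPM with vehicle and 86.1, 92.8, 78.5, 95.8 and 85.8 with CBPi (log2 -2.06, SE 0.18, adjusted p = 2.23e-05). Clec4n, the fungal mannan receptor dectin-2, was 3.55-fold lower (log2 -1.83, adjusted p = 3.12e-04). Siglecf, a sialic acid-binding receptor of eosinophils and tumour neutrophils, fell from the range 45.9 to 74.2 to the range 13.5 to 19.3 CPM (log2 -1.97, adjusted p = 9.37e-05). Of the other eosinophil markers, Prg2, Ear1 and Ear6 were at 0 in all gMDSC libraries, Epx read at most 0.07091 and Il5ra at most 0.08916 CPM, and Ear2 read up to 1.702 CPM with vehicle and 0 in every CBPi library. The summed level of 18 mast cell, basophil and eosinophil markers was 58.11 to 80.9 CPM against 13.77 to 24.19. Most of that sum was Siglecf and Ccr3 themselves, so it restates their fall. On deposited totals Siglecf alone read 44.71 to 73.15 CPM against 11.43 to 18.01. A part of such cells in the fall of Siglecf and Ccr3 was not tested. Among 26 Fc receptor and proximal signalling genes 7 fell (26.9%), led by the phosphatase gene Ptpn6 (log2 -1.005, adjusted p = 6.46e-04) and the adaptors Lat2 (log2 -1.13, adjusted p = 0.00244) and Blnk (log2 -0.99, adjusted p = 0.00257); without CBPi 6, CBPi 8 or CBPi 10 the count was 4. Of 31 Toll-like receptor and inflammasome genes 6 fell (19.4%) and none rose. Mefv, which encodes the inflammasome sensor pyrin, was 4.78-fold lower, at 209 to 307 CPM against 39.6 to 67.7 (log2 -2.26, adjusted p = 2.23e-05), the flagellin sensor family member Naip2 3.25-fold (log2 -1.70, adjusted p = 1.66e-04) and Tlr12 2.77-fold (log2 -1.47, adjusted p = 0.0185); only 3 of the 6 fell without vehicle 1, vehicle 4 or any of CBPi 7 to 10.

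Of 34 tested neutrophil identity genes 2 rose (5.88%), both of the Stfa family, and 7 fell (20.6%), beside 4.18% and 5.52% of all tested genes. The median log2 was -0.43, or -0.12 without vehicle library 3. The number that fell was 4 without vehicle 1, CBPi 8 or CBPi 10, and 11 without vehicle 5. The summed level of the 34 was 24070 to 54320 CPM with vehicle and 26070 to 37490 with CBPi, so the groups overlapped. S100a9, a calprotectin subunit of neutrophils, read 6228, 3444, 16860, 5254 and 2442 CPM with vehicle and 4331, 2746, 1931, 2284 and 1829 with CBPi (log2 -1.38, SE 0.45, adjusted p = 0.0719). S100a8, its partner, read 3069, 1669, 8055, 2667 and 1399 against 2541, 1501, 1264, 1535 and 1000 CPM (log2 -1.10, SE 0.43, adjusted p = 0.123). Neither passed the test, and vehicle 3 was the highest library for both. Csf3r, the G-CSF receptor, read 3618, 3799, 2971, 4331 and 2761 against 3417, 3592, 2241, 2295 and 2677 CPM (log2 -0.30, adjusted p = 0.35). Lrg1, a granule glycoprotein, was 2.57-fold lower (log2 -1.36, adjusted p = 0.00562), without overlap.

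Of 22 tested granule genes 8 fell and none rose (median log2 -0.68), with 5 lower without vehicle 1 or without CBPi 7. Chil1, a chitinase-like protein of specific granules, read 393, 279.6, 381, 347 and 181 CPM with vehicle and 39.8, 30.5, 12.5, 22.1 and 21.1 with CBPi, 12.6-fold lower (log2 -3.65, SE 0.32, adjusted p = 2.27e-05). Lyz2, lysozyme, fell from the range 2342 to 2949.7 to the range 1132 to 1663 CPM (log2 -0.91, adjusted p = 0.00433), and Ltf, lactoferrin, 3.06-fold (log2 -1.61, adjusted p = 0.00871). Lyz2 is also a macrophage gene, whose marker ranges are given above.

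Of 32 tested type I interferon-stimulated genes, 11 rose and none fell (median log2 0.47). The number was 4 without CBPi 7, 6 without CBPi 6 or vehicle 4, and 7 without vehicle 5. Mx2, an antiviral GTPase, read 91.2, 63.7, 68.3, 95.1 and 60.1 CPM with vehicle and 899.8, 693, 447, 348 and 415 with CBPi, 7.41-fold higher (log2 2.89, SE 0.27, adjusted p = 5.79e-05). Ifit2, which restrains viral translation, was 2.88-fold higher (log2 1.52, adjusted p = 0.00383). Rsad2, the antiviral enzyme viperin, was 2.68-fold higher (log2 1.42, adjusted p = 0.00914), and its window is shown for a match to the interferon-stimulated response element on the opposite strand, in capitals, at chr12:26456403-26456702 of GRCm38.p6, minus strand.
Rsad2: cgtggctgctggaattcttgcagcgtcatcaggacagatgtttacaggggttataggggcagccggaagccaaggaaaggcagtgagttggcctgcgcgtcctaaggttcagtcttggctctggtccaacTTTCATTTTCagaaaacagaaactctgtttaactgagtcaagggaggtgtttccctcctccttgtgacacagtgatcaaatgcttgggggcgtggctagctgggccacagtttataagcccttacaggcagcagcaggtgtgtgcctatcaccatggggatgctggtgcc
The 2 windows of Ifit2 held no match. The element was in 44.4% of the windows of the list's tested genes and 3.44% of those of tested genes. Of 24 interferon-γ-induced genes 3 fell and none rose: Ciita, Cxcl9 and the transcription factor gene Irf8 (log2 -0.57, adjusted p = 0.0497), the last holding in 1 of 10 leave-one-out fits. In 7 of those fits 1 of the 24 fell.

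Of 28 tested immediate-early genes 11 rose and none fell (median log2 0.69); 4 rose without CBPi 7, 6 without CBPi 6 or vehicle 1, and 7 without vehicle 2. Jun, an AP-1 subunit, read 957, 1103, 1463, 1209.9 and 1258 CPM with vehicle and 6155, 5129.7, 2692, 2401 and 2212 with CBPi (log2 1.63, SE 0.29, adjusted p = 0.00449), again highest in CBPi 6 and 7. Fosl1, another AP-1 subunit, was 9.21-fold higher (log2 3.20, adjusted p = 0.00116), and Dusp5, a nuclear phosphatase of ERK, 2.85-fold (log2 1.51, adjusted p = 0.00277). For Fosl1 and Dusp5 too, every CBPi library lay above every vehicle library. NF-kB feedback was split: Tnfaip3, the ubiquitin-editing inhibitor A20, rose 2.7-fold (log2 1.44, adjusted p = 0.00562), while Tnip1, its binding partner, was 2.02-fold lower (log2 -1.02, adjusted p = 0.00449) and Bcl2a1a, a survival gene, 2.88-fold lower (log2 -1.53, adjusted p = 0.0028). In all, 2 of 30 NF-kB genes rose and 7 fell.

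**Figure D4:**
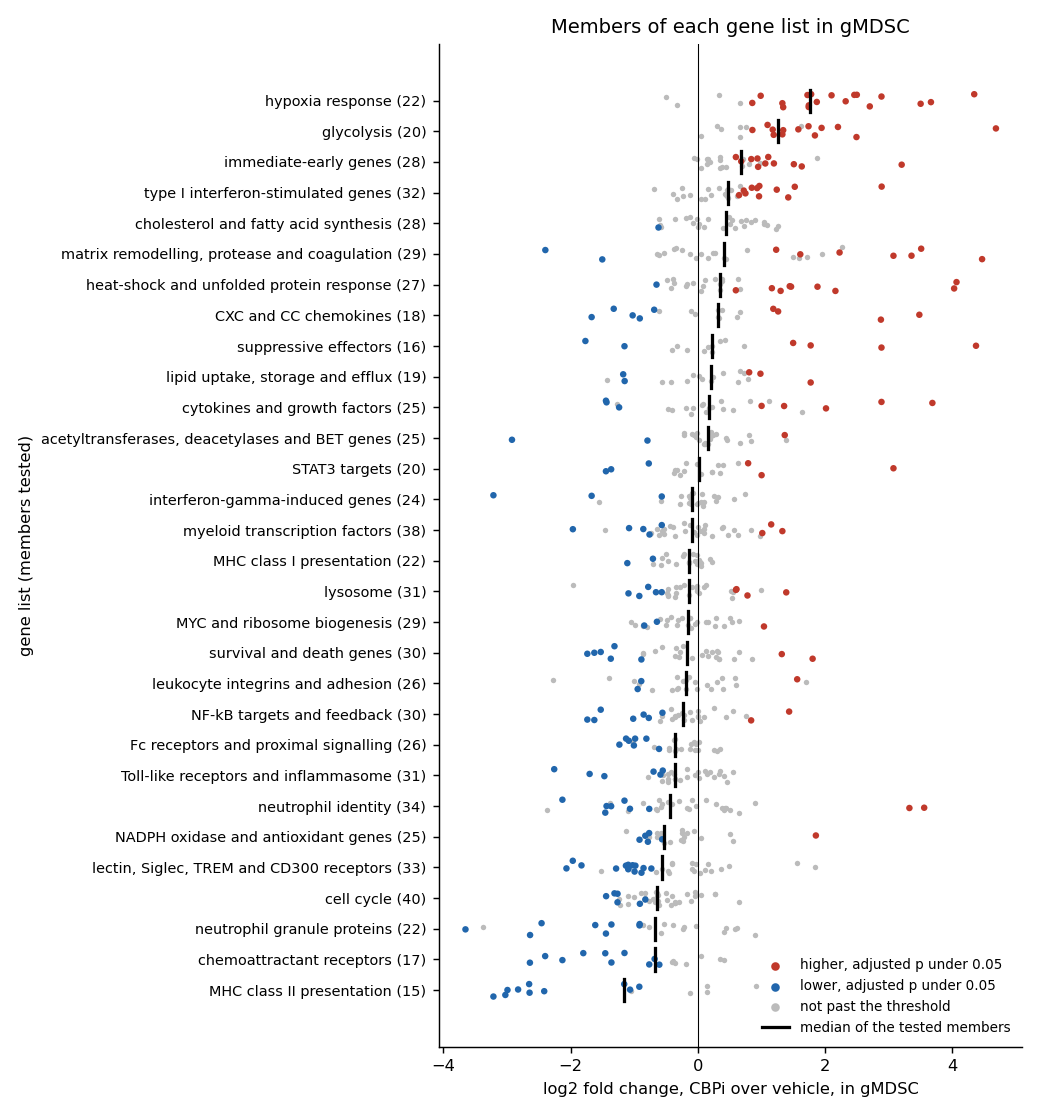
Log2 fold change of CBPi over vehicle (x axis) for each tested member of 30 gene lists (y axis, with the number tested), ordered by median, which is the black bar. Hypoxia response (median 1.76) and glycolysis (1.26) lie at the top with 18 and 13 genes past the threshold, and class II presentation (-1.16) at the bottom with 10.

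The RNA of the drug's own targets did not pass the test. Crebbp read 154, 109, 247, 144 and 96.8 CPM with vehicle and 161, 179.8, 135, 116 and 141 with CBPi (log2 -0.04, SE 0.24, adjusted p = 0.945), and Ep300 168, 115, 127, 102 and 122 against 172, 185, 141, 119.8 and 155 (log2 0.29, SE 0.17, adjusted p = 0.322). Of 25 acetyltransferase, deacetylase and BET genes 1 rose (4%) and 2 fell (8%), near the 4.18% and 5.52% of all tested genes. The riser was the NAD-dependent deacetylase Sirt1 (log2 1.37, adjusted p = 0.0018), and Hdac9 (log2 -2.92, adjusted p = 0.0181) and Hdac4 fell. The Hdac4 call (log2 -0.79, adjusted p = 0.0446) held in 3 of 10 leave-one-out fits and that of Hdac9 in 9, with log2 -2.21 without vehicle 3. Myc read 25.6, 34.5, 39.1, 21.6 and 39.7 CPM against 18.2, 33.6, 32.7, 33.9 and 31 (log2 -0.10, adjusted p = 0.821). Of 29 MYC and ribosome biogenesis genes 1 rose (3.45%) and 2 fell (6.9%), also near the shares of all tested genes. The polyamine enzyme gene Odc1 rose (log2 1.04, adjusted p = 0.0302). The small nucleolar RNA protein genes Dkc1 (log2 -0.84, adjusted p = 0.02) and Nhp2 (log2 -0.64, adjusted p = 0.0371) fell. In 10 leave-one-out fits the call held in 4 for Odc1, 9 for Dkc1 and 3 for Nhp2. Stat3 read 509, 539, 409.9, 671 and 441 against 904, 726, 565, 447 and 544 CPM (log2 0.31, adjusted p = 0.373).

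Among 38 myeloid transcription factors 3 rose (7.89%) and 5 fell (13.2%). Nfil3, a basic leucine zipper factor, was 2.02-fold higher (log2 1.01, adjusted p = 0.00811). Batf3, a dendritic cell factor, was 3.9-fold lower (log2 -1.96, adjusted p = 0.00449), and Spi1, which encodes the myeloid master regulator PU.1, 1.69-fold lower, at 897 to 1629 CPM against 636 to 799 (log2 -0.76, adjusted p = 0.0144). Survival genes were divided, with 2 higher (6.67%) and 6 lower (20%) of 30. Bcl2l11, the pro-apoptotic BIM, rose from the range 45.2 to 56.6 to the range 125 to 251 CPM (log2 1.804, SE 0.22, adjusted p = 4.18e-04). Gsdme, a pore-forming gasdermin, was 2.58-fold lower (log2 -1.37, adjusted p = 5.89e-04). Of 40 cell cycle genes 6 fell (15%, beside 5.52% of all tested genes) and none rose, and 13 fell without vehicle 3. Mki67, the proliferation antigen, read 65.5, 64, 75.9, 76.8 and 71.7 CPM with vehicle and 24.4, 36.6, 32.7, 25.1 and 28.7 with CBPi (log2 -1.26, SE 0.16, adjusted p = 5.64e-04). Ccnd1, cyclin D1, was 2.72-fold lower (log2 -1.44, adjusted p = 0.00633) and Birc5, the mitotic protein survivin, 2.48-fold (log2 -1.31, adjusted p = 0.00493).

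Matrix and coagulation genes rose in 7 and fell in 2 of 29 tested. Besides Thbs1, F13a1, the coagulation factor XIII A chain, rose from the range 0.654 to 3.85 to the range 11.1 to 46.9 CPM (log2 3.36, SE 0.52, adjusted p = 0.00203), and Vcan, the proteoglycan versican, from the range 0.151 to 2.8 to the range 7.09 to 23.1 (log2 3.51, SE 0.78, adjusted p = 0.0144; log2 4.10 without vehicle 1). F3, tissue factor, was 3.05-fold higher (log2 1.61, adjusted p = 0.017). Plau, the protease urokinase, fell: it read 177, 211, 154, 187 and 196 CPM with vehicle and 79.3, 54.9, 61.7, 68.8 and 61.9 with CBPi (log2 -1.50, SE 0.15, adjusted p = 9.37e-05). F13a1 and Vcan are also monocyte genes; of 21 monocyte markers 4 rose and 6 fell, and their sum was 19220 to 23850 CPM with vehicle and 23060 to 27850 with CBPi, most of it Cd14. The monocyte marker Ly6c2 fell from the range 18 to 56.6 to the range 11.1 to 17.5 CPM (log2 -1.41, adjusted p = 0.0141), and without vehicle 1 or CBPi 7 the count of falling markers was 3. Treml4, a receptor of patrolling monocytes, was 2.44-fold lower (log2 -1.28, adjusted p = 0.00232).

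Soat1, which esterifies cholesterol, rose 1.75-fold (log2 0.81, adjusted p = 0.0152) and the scavenger receptor gene Cd36 fell 2.25-fold (log2 -1.17, adjusted p = 0.0208), the latter holding in 7 of 10 leave-one-out fits, within 3 higher (15.8%) and 2 lower (10.5%) of 19 lipid genes. None of the 19 fell without CBPi 6 or CBPi 7. Of 28 cholesterol and fatty acid synthesis genes 1 fell (3.57%) and none rose. The gene that fell was the sterol isomerase gene Ebp (log2 -0.63, adjusted p = 0.0314, 4 of 10 leave-one-out fits). Lysosomal genes split into 4 higher, such as the protease Ctsl (log2 0.61, adjusted p = 0.0131), and 5 lower; 2 to 3 fell in 8 of the 10 leave-one-out fits. Of 26 adhesion genes 1 rose (3.85%) and 2 fell (7.69%), beside 4.18% and 5.52% of all tested genes: Itgb7 rose (log2 1.56, SE 0.25, adjusted p = 0.00261), while Itgax, which encodes CD11c (log2 -0.95, adjusted p = 0.00618), and Selplg, the P-selectin ligand (log2 -0.89, adjusted p = 0.00375), fell. Of 20 STAT3 target genes 3 rose (15%) and 3 fell (15%). Hp, haptoglobin, was 2.72-fold lower (log2 -1.44, adjusted p = 0.00679) and Prok2, a neutrophil-derived peptide, 8.42-fold higher (log2 3.07, adjusted p = 0.0109). Without CBPi 7, 1 STAT3 target rose, and without CBPi 6 the log2 value of Prok2 was 2.47.

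Markers of lymphoid, stromal, epithelial and erythroid cells were summed over each library, and their part in the changes was not tested. The 20 measured lymphocyte and NK markers summed to 34.19 to 77.65 CPM with vehicle and 15.4 to 34.6 with CBPi, and the 22 fibroblast and endothelial markers to 288.2 to 639.7 and 222.5 to 522.7. The 15 epithelial markers summed to 44.26 to 81.07 with vehicle and 27.17 to 32.27 with CBPi, groups that did not overlap. On deposited totals Krt18 alone read 17.32 to 36.05 CPM against 0.438 to 3.85, so the sum in large part restates its fall. The 16 erythroid and platelet markers summed to 28.53 to 63.54 and 38.83 to 65.99. Of 10 lymphocyte and NK markers tested 2 fell, Cd3d from the range 9.42 to 37.3 to the range 1.24 to 4.48 CPM (log2 -2.73, adjusted p = 0.00421) and Klrb1c (log2 -2.70, adjusted p = 0.0211, 6 of 10 leave-one-out fits, log2 -3.31 without CBPi 8). Cd8a and Pax5 were at 0 in every gMDSC library, and Cd3e stayed at or below 0.2408 CPM. Other markers of that list were present: Cd79b read 10.35 to 20.56 CPM with vehicle and 6.168 to 20.82 with CBPi, Cd4 up to 6.87 and 2.023, Gzma up to 9.16 and 2.287, and Il7r up to 7.8 and 3.448. Ncr1, an NK receptor gene, had a median of 3.371 CPM with vehicle and 0 with CBPi. Of 17 fibroblast and endothelial markers 1 fell (5.88%, near the 5.52% of all tested genes). It was the smooth muscle actin gene Acta2, from the range 32.8 to 97.2 to the range 3.92 to 18.8 CPM (log2 -2.31, adjusted p = 0.00333). Col1a1 read 26.52 to 87.86 against 17.78 to 57.71 CPM. Of 9 epithelial markers 2 fell, the keratin genes Krt18 and Krt8, the latter in 2 of 10 leave-one-out fits (log2 -2.24, adjusted p = 0.032), and Epcam was at most 2.247 CPM. Erythroid and platelet markers showed no call among 4 tested.

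The response of gMDSC differed from that of mMDSC for a small number of genes. Over 12688 genes tested, the CBPi effect was higher in gMDSC for 63 (0.497%) and lower for 29 (0.229%) at an adjusted p under 0.05 for the difference itself. The hypoxia list gave 8 such genes of 22 and glycolysis 5 of 20, all higher in gMDSC, while 6 members of the first rose and 1 fell in mMDSC, and 3 of the second rose. Ero1a differed by 2.81 on the log2 scale (SE 0.40, adjusted p = 0.00153), being 3.50 in gMDSC and 0.64 in mMDSC. Pfkfb3 differed by 2.37 (adjusted p = 0.00274), Ndrg1 by 1.58 (0.00339) and P4ha1 by 1.69 (0.00339). These 4 differences passed in all 20 fits that left out 1 library. For Vegfa the difference was 1.69 (adjusted p = 0.04) and passed in 8 of the 20, with an adjusted p of up to 0.0785, without gMDSC CBPi library 7.

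Chaperone genes also differed, 4 of 28 tested. The log2 change of Hspa1a was 4.07 in gMDSC and 0.07 in mMDSC, each fitted alone, and the joint fit gave a difference of 3.96 (SE 0.46, adjusted p = 2.60e-04), and Hspa1b differed by 3.94 (adjusted p = 3.98e-04). Both passed in all 20 leave-one-out fits, as did Nos2 (3.81, 0.0175), Thbs1 (3.73, 0.00385), Mx2 (2.00, 0.00339), F13a1 (3.19, 0.00767) and Itgb7 (1.75, 0.00339), given as the log2 difference and its adjusted p. With the replicate number as a block in the same test, Nos2 and F13a1 did not pass (adjusted p = 0.125 and 0.0501). Fry (3.99) and Aldoc (3.66) were among the 6 largest but passed in 7 and 16 of the 20 fits. Without vehicle 1 of the mMDSC the difference of Nos2 was 3.09, and without gMDSC vehicle 2 that of Aldoc was 5.18.

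In the other direction, Clec4n fell in gMDSC and did not pass the test in mMDSC (log2 -1.83 and 0.32, difference -2.20, adjusted p = 0.00148). Mefv differed by -1.44 (0.00339) and Lrg1 by -2.15 (0.0148). Cxcl14, an epithelial-type chemokine, rose in mMDSC and did not pass the test in gMDSC (log2 1.44 and -0.62, difference -2.10, 0.0175). Oscp1 had the largest difference, -6.47 (0.00307), from a mean near 0 in vehicle mMDSC, and was -7.13 without mMDSC vehicle 5. Egr3, an immediate-early factor, and Galnt12, a glycosyltransferase, completed the 6 (-3.55 and -2.24); they passed in 9 and 10 of the 20 fits. MHC class II genes fell in both populations, 10 of 15 tested in each. The fall was deeper in gMDSC for Cd74 (difference -1.49, 0.0355), H2-Eb1 (-1.54, 0.0355) and H2-Aa (-1.52, 0.0487), and these 3 passed in 7, 6 and 5 of the 20 fits. Chemoattractant receptors showed no difference past the threshold among 17 tested.

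**Figure D5:**
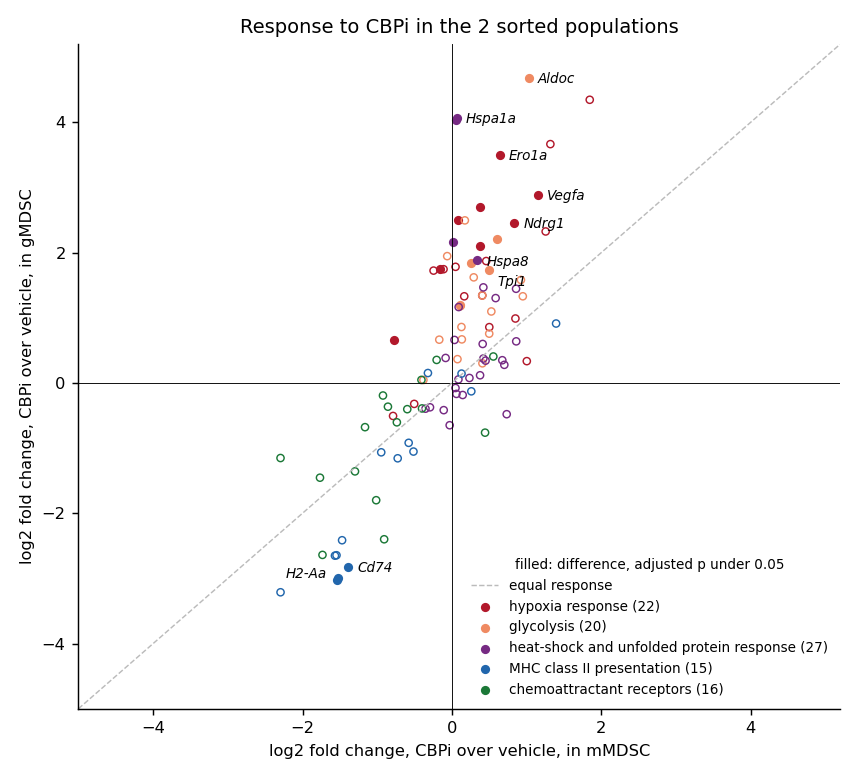
Log2 fold change of CBPi over vehicle in mMDSC (x axis) and gMDSC (y axis) for tested members of 5 lists; filled points passed the test of the difference, and the dashed line marks equal response. The filled hypoxia, glycolysis and heat-shock genes such as Ero1a (3.50 in gMDSC, 0.64 in mMDSC) lie above the line, and H2-Aa and Cd74 below it.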

How the data were processed

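Per the labels' protocols, polyadenylated RNA of sorted cells was prepared with TruSeq V2 kits. GSNAP and GRCm38 are named in the submitters' processing notes, and the counting tool is not given in the sources used here. The authors deposited whole-number counts and RPKM values (reads scaled to gene length and library size) for 23090 genes per library. Names were matched by gene ID to RefSeq, 21647 of the 23090. RPKM served only to compare levels between genes.

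The gMDSC counts were filtered (filterByExpr, minimum count 10, minimum total 15), scaled by TMM and tested with edgeR 4.0.16 (R 4.3.3), quasi-likelihood, Benjamini-Hochberg over all tested genes, threshold 0.05. CPM per library are TMM-scaled, except gate genes and summed markers, which use deposited totals. The population difference is the interaction term over all 20 libraries. Alternatives were RLE scaling, DESeq2 1.42.0, limma 3.58.1 voom with quality weights, other filters, a spread from 20 libraries, thinning, and leaving out libraries.

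Gene lists, members and tests were chosen with earlier results of these data known. Named genes are the 12 largest changes each way at 10 CPM or more, up to 3 per list by p, 16 fixed genes and the 6 largest differences each way; some list members without a call are summarised only, and 1 named by the rule is not reported here. Chosen after their values were seen were Apoe, Bnip3, C1qa, Ccl3, Dnajb1, Egln3, F3, Fpr2, the H2-DM genes, Hif1a, Hk2, Hsp90aa1, Hsph1, Ldha, Ltf, Ly6c2, Nt5e, P4ha1, Pfkfb3, Slc2a1, Slc2a3 and Spi1. Promoter windows are RefSeq, GRCm38.p6, searched on both strands.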

Additional observations from a re-analysis of the deposited data

Results flagged for a closer look

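Among 298 groups of 5 values, 25 held a library far from the nearest of the others relative to the range of the group; chance marks about 1 in 20. Of these, 11 were vehicle library 3. Vehicle library 3 was the lowest of its group, in CPM with the next value in brackets, for Hif1a at 189 (330). Vehicle library 3 was the highest of its group, in CPM with the next value in brackets, for C1qa at 4812 (3011), Cd3d at 37.3 (17.1), H2-Eb1 at 3513 (2449), Hmox1 at 289 (181), Ms4a7 at 1908 (1171), Pfkl at 184 (132), S100a8 at 8055 (3069), S100a9 at 16860 (6228), Stfa2 at 8.75 (1.98) and Tpi1 at 190.1 (116). CBPi library 6 was the lowest of its group, in CPM with the next value in brackets, for Myc at 18.2 (31) and Vcam1 at 40 (83.5). CBPi library 6 was the highest of its group, in CPM with the next value in brackets, for Prok2 at 28.3 (10.6), Rac2 at 577 (494) and Sirt1 at 52.7 (37.2). Vehicle library 1 was the highest of its group, in CPM with the next value in brackets, for Cd274 at 519 (259.5), Cxcl9 at 47.8 (21.6) and Pfkp at 219 (140). CBPi library 8 was the highest of its group, in CPM with the next value in brackets, for Cxcl9 at 17.6 (5.89) and Klrb1c at 0.89 (0.334). Vehicle library 2 was the lowest of its group, in CPM with the next value in brackets, for Hspa8 at 12.7 (15.9). Vehicle library 2 was the highest of its group, in CPM with the next value in brackets, for Aldoc at 1.13 (0.245). CBPi library 9 was the highest of its group, in CPM with the next value in brackets, for Galnt12 at 31.2 (17.6). By total count, vehicle library 5 was the highest of its group, at 23.27 M against 14.1 M for the next.

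For 37 genes of the text the response to CBPi differed between gMDSC and mMDSC by the interaction test, at an adjusted p under 0.05 over all genes, given here as the log2 difference, gMDSC minus mMDSC. Higher in gMDSC, with the call kept in each of the 20 leave-one-out fits, were Hspa1a (3.96), Hspa1b (3.94), Nos2 (3.81), Thbs1 (3.73), F13a1 (3.19), Ero1a (2.81), Pfkfb3 (2.37), Mx2 (2.00), Itgb7 (1.75), P4ha1 (1.69), Ndrg1 (1.58), Hspa8 (1.49) and Bcl2l11 (1.34). Higher in gMDSC, with the call lost in 1 or more of the 20 leave-one-out fits, were Fry (3.99), Aldoc (3.66), Bnip3 (2.29), Hsp90aa1 (2.09), Hif1a (1.70), Vegfa (1.69), Hmox1 (1.56), Pfkl (1.56), Pfkp (1.53), Tpi1 (1.20), Ldha (1.03), Soat1 (1.03) and Plau (0.87). Plau fell with CBPi in gMDSC, as given above, so its positive difference is not a rise there. Lower in gMDSC, with the call kept in each of the 20 leave-one-out fits, were Oscp1 (-6.47), Clec4n (-2.20), Lrg1 (-2.15), Cxcl14 (-2.10), Cd36 (-1.80) and Mefv (-1.44). Lower in gMDSC, with the call lost in 1 or more of the 20 leave-one-out fits, were Egr3 (-3.55), Galnt12 (-2.24), H2-Eb1 (-1.54), H2-Aa (-1.52) and Cd74 (-1.49).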

How the results depend on the processing

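The counts of changed genes stayed within 1.5 times of 489 higher and 646 lower under RLE scaling, limma-voom with quality weights, both other filters, thinning and the removal of gMDSC libraries 3 and 7 together, whose place in the order of deposit lies among the mMDSC. DESeq2 called 866 higher and 1060 lower, and a spread taken from all 20 libraries gave 872 and 1310. Leaving out 1 library at a time gave 229 to 658 higher and 358 to 736 lower. For the difference between gMDSC and mMDSC, DESeq2 called 184 higher and 93 lower in place of 63 and 29, and leaving out 1 library gave 23 to 85 higher and 10 to 32 lower. The replicate numbers are shared between the populations, and a replicate block gave 33 higher and 19 lower. Of 37 named differences 24 passed with the block, and 13 did not: Nos2 (adjusted p = 0.125), F13a1 (0.0501), Cxcl14 (0.0572), Hspa8 (0.0572), Bcl2l11 (0.0941), Vegfa (0.0538), Bnip3, Egr3, Ldha, Pfkl, Plau, Soat1 and Tpi1 (0.06 to 0.129). To compare same-numbered libraries of the 2 populations, the group mean of each gene was first subtracted from log2 CPM. These deviations correlated at -0.031 to 0.168 over 10 pairs, 2 of them over 0.1. By this measure 3 of 10 gMDSC libraries correlated best with their own number, so the numbers were not taken as pairs. No paired analysis was possible for the comparison within gMDSC because its groups share no replicate number.

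Of all called genes, 50.1% (without CBPi 7) to 92% (without vehicle 3) kept the call when 1 library was left out. The share was 62.1% without libraries 3 and 7 together. Of 130 called genes named in the text, mostly chosen for large changes or small p, 105 passed under every setting tried. Of the same 130, 19 lost the call in 1 or more leave-one-out fits. Other settings ended these calls within gMDSC: voom those of Fry and Krt8, the 20-library spread those of Ccr3, Cxcr2 and Ltf (adjusted p = 0.0676, 0.128 and 0.342), the absence of a filter those of Ebp, Hdac4, Irf8 and Nhp2, thinning that of Irf8, and the removal of libraries 3 and 7 together 18 calls, among them Apoe, Ms4a7, Trem2, F3, Psme2 and Soat1. The difference of H2-Aa lost its call under RLE scaling and without a filter, and that of Plau without a filter. Voom moved the log2 value by over 1.5 times in fold for Areg (4.62), Ccr7 (3.33), Cmah (-5.03), Hdac9 (-2.03), Il6 (2.75), Kcnj8 (-5.48), Krt18 (-5.02), Thbs1 (3.78) and Vcan (4.64). Signs reversed only for genes that did not pass the test, and the cause was not tested. Under voom the log2 fold change was -0.003 for Cd274, 0.196 for Crebbp and 0.081 for Il1b. Without gMDSC libraries 3 and 7 these were -0.124, 0.127 and 0.044. Leaving out 1 library gave log2 values from -0.046 (without CBPi 7) to 0.634 (without vehicle 3) for Arg1, from -0.08 (without CBPi 6) to 0.469 (without vehicle 1) for Cd274, from -0.157 (without vehicle 5) to 0.209 (without vehicle 3) for Crebbp, from -0.224 (without vehicle 5) to 0.059 (without vehicle 3) for Il1b and from -0.221 (without vehicle 4) to 0.032 (without CBPi 6) for Myc. Depth limits genes near 0 in one group, such as Aldoc, Vcan and Areg.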
